A study of Mus musculus with 9 samples.

Results

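The genes described here are 42 components of the centrosome and the centriole, taken by symbol from a list. That list was chosen with earlier results of these data known. All 42 were found among the 19991 genes of the count table, and all 42 were among the 15834 genes with enough counts to be tested. RNA was taken from whole testis of 8-week-old ICR mice, an outbred stock, after an injection of PBS (the group named Control), of AZ82 at 1 µM or of CW069 at 50 µM, with 3 libraries in each group and 9 in all. AZ82 and CW069 are code names of inhibitors of KIFC1. The time between injection and sampling, the route and any vehicle are not given in the sources used here, and nothing says whether the 3 samples of a group came from separate animals, so the p-values reflect only sample-to-sample spread, part or all of which could be technical. Levels are in CPM, a gene's count scaled to the effective size of its library.

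A centrosome is a pair of centrioles, short barrels of microtubules, inside a protein matrix that carries gamma-tubulin rings, from which new microtubules grow. The kinase PLK4 starts the building of a new centriole beside each old one, with STIL and SASS6 forming the cartwheel that sets its symmetry. KIFC1 is a minus-end-directed kinesin that draws microtubule minus ends together and gathers centrosomes at spindle poles, which is why the components of the centrosome are of interest after its inhibition. In the testis, centrioles serve the spindles of spermatogonia and spermatocytes. In spermatids a centriole seeds the flagellum and sits in the neck that joins head to tail, and mouse sperm later lose their centrioles.

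Libraries held between 13856070 and 18102593 counts. Markers of germ cells and of testicular somatic cells were all present, with no marker of any list at 0 in every library. The library named Control 3 stood apart: 12 late spermatid markers summed to 8130 CPM in it and to 20172 and 17802 CPM in Control 1 and 2, while AZ82 libraries held 18457 to 22187 CPM and CW069 libraries 15022 to 17585 CPM. For 10 Leydig markers the sums were 1861 to 1985 CPM (Control), 1571 to 1911 CPM (AZ82) and 1508 to 1547 CPM (CW069). Spermatogonia sums were 192 to 201, 171 to 191 and 177 to 187 CPM in that order. AZ82 sums lay above Control for spermatocytes (6319 to 6518 against 5880 to 6125 CPM). They did too for round spermatids (2216 to 2322 against 1800 to 2164 CPM) and, narrowly, multiciliated epithelium. For Sertoli cells they lay below (1045 to 1155 against 1166 to 1216 CPM). In AZ82 libraries Ldhc and Ybx2, the bulk of the spermatocyte sum, lay above Control. Hormad1 (73.6 to 95.8 against 96.8 to 105 CPM) and Dmc1 lay below Control, and the other spermatocyte markers overlapped. Clu, the bulk of the Sertoli sum, overlapped with Control (823 to 911 against 894 to 939 CPM). Cst12 and Fshr lay below Control, and the other Sertoli markers overlapped. All other sums of either inhibitor overlapped with Control. The part of these sums in the members' values was not tested. Of the markers of multiciliated epithelium, as in the efferent ducts, Mcidas and Gmnc stayed at or below 0.128 and 0.398 CPM. Ccno held 1.92 to 2.93 CPM, while Foxj1 and Deup1 reached 93.4 and 300.1 CPM. CW069 1 and 2 were the closest pair of libraries, with a mean chi-square per gene of 3.64 against 4.99 to 37.2 in the other 35 pairs, so even they differed by more than sampling noise, for which the value would be about 1. In whole testis, fewer cells of a type and less RNA per cell cannot be told apart.

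After AZ82, 0 of the 42 members passed the test over all genes (edgeR quasi-likelihood test, Benjamini-Hochberg adjusted p under 0.05), as did 0% of all tested genes. Their median log2 fold change was 0.05, against -0.0010 over all tested genes, and 28 of 42 lay above 0. Without Control 1 that median was 0.013. With scaling by library size alone, which puts the median of all tested genes at -0.08, it was -0.035 and 13 of 42 lay above 0. At an unadjusted p under 0.05, Pcnt was the 1 higher member and 0 were lower, beside 4.04% higher and 4.79% lower among all tested genes. The AZ82 libraries lay entirely above the Control libraries in 3 members, Pcnt, Odf2 and Cetn1, and entirely below in 0, beside 6.65% and 8.62% of all tested genes.

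After CW069, again 0 of 42 members and 0% of all tested genes passed. The median log2 fold change was -0.0085, with 18 of 42 above 0, against -0.0038 over all tested genes. It was 0.012 without CW069 3. Above 0 were 22 members with RLE factors and 10 with library size alone, which puts the median of all tested genes at -0.05. Tubg2 and Poc1a (2 members) were higher and Tubgcp5 (1 member) lower at an unadjusted p under 0.05, beside 3.63% higher and 3.71% lower among all tested genes. The CW069 libraries lay entirely above Control in 4 members, Tubg2, Poc1a, Tubgcp2 and Cep164, and entirely below in Tubgcp5 alone, beside 6.13% and 7.24% of all tested genes.

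The inhibitor comparisons share their Control libraries, as does the comparison of the mean of both inhibitors with Control. In the latter 0 of 42 members passed, beside 0.00632% of all tested genes. Here 3 members, Pcnt, Tubg2 and Poc1a, were higher and 1, Tubgcp5, lower at an unadjusted p under 0.05, beside 4.31% and 5.27% of all tested genes. In 0 members did the 6 inhibitor libraries lie entirely above or below Control, beside 2.19% and 2.92% of all tested genes. DESeq2 and limma-voom likewise called 0 members in any comparison. The share of all tested genes that these tools called was not kept, so this count has no background beside it.

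The intervals behind these values were narrow. They cover only the spread between these libraries, part or all of which could be technical. The median 95% interval of a member's log2 fold change reached 0.19 to either side after AZ82, a factor of 1.14, and 0.18 after CW069. The whole interval lay within a 1.5-fold change in either direction in 39 of 42 members after AZ82 and in 41 of 42 after CW069. The exceptions were Cetn2, Nin and Tubg2 for AZ82 and Tubg2 for CW069, which are the members with the lowest counts (from 19 to 114 in a library). For comparison, 10901 and 11151 of the 15834 tested genes had such intervals, but the sets were not matched for level.

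**Figure D1:**
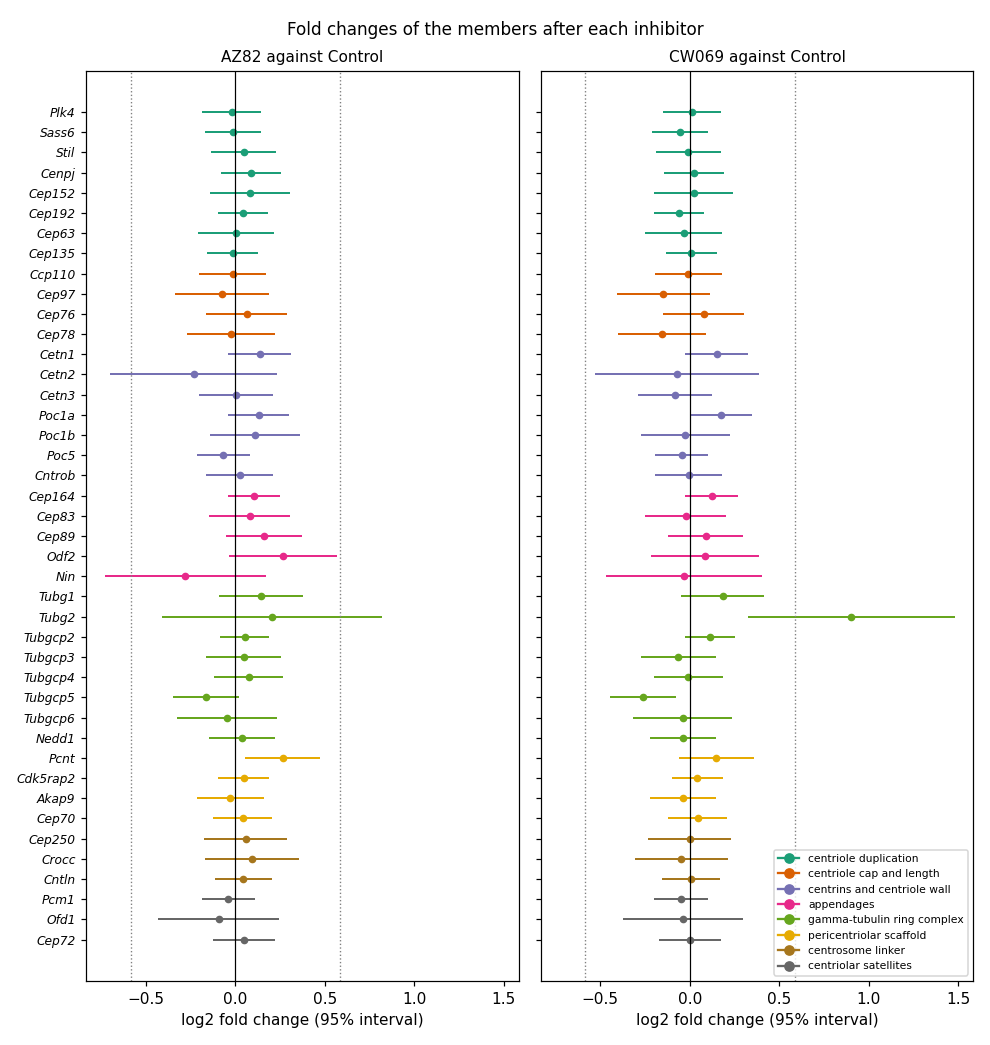
Log2 fold change of each of the 42 members after AZ82 (left) and CW069 (right) against Control, from the fit over all 9 libraries; points are estimates, bars are 95% intervals, colours mark the role of the gene and dotted lines mark a 1.5-fold change. Apart from Tubg2 after CW069, at 0.90, every point lies between -0.28 and 0.27.

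In the Control libraries the members covered a wide range of levels. Per kilobase of the longest coding transcript, their median was 12.4 CPM per kb, against 6.46 over 15194 tested genes with a transcript length, and 32 of 42 lay above that median. Odf2 stood highest at 896 ± 193 CPM per kb (SD, n = 3), then Cetn1 at 338 ± 10.6, Cep63 at 128 ± 17.1, Cetn3 at 66.4 ± 4.15 and Cep72 at 65.3 ± 3.90. The lowest were Nin at 0.321 ± 0.0657, Tubg2 at 0.771 ± 0.0551 and Tubgcp6 at 2.40 ± 0.325 CPM per kb. Below the first 3, the order was close: in 30 of the 41 neighbouring pairs the Control libraries overlapped. The choice of transcript matters for some of these levels, since with the median length of a gene's coding transcripts Cep63 reached 673, above Cetn1 at 367, and Cdk5rap2 300.2 CPM per kb in place of 29.7. The members varied little between libraries. Their median coefficient of variation over 3 Control libraries was 6.89%, against 9.64% over 14957 genes at 1 CPM or more. The sets were not matched for level, so this difference is not shown to be a trait of the members.

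**Figure D2:**
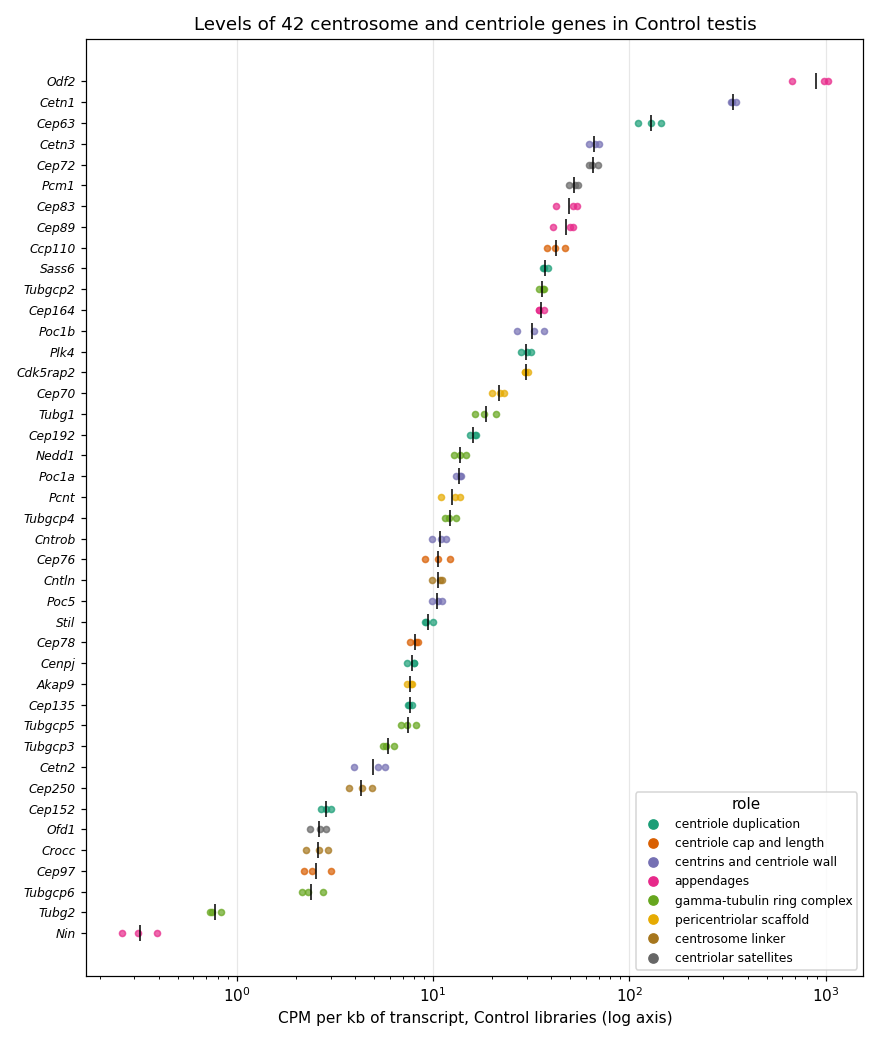
Level of each member in the 3 Control libraries, in CPM per kb of its longest coding transcript on a log axis; points are libraries, black ticks their mean and colours the role of the gene. Odf2 and Cetn1 stand above the rest, and Tubg2 and Nin below 1 CPM per kb.

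In all 8 genes of centriole duplication, the libraries of each inhibitor overlapped with Control, as they did in most tested genes. After AZ82, 6.65% of all tested genes lay entirely above Control and 8.62% entirely below. After CW069 the shares were 6.13% and 7.24%. Plk4, the gene of the kinase that starts duplication, was at 97.5, 105 and 110 CPM in Control 1 to 3. It was at 102, 109 and 96.5 CPM after AZ82 and at 107, 101 and 106 CPM after CW069. These ranges overlap, with log2 fold changes of -0.02 ± 0.07 and 0.01 ± 0.07 (SE). Sass6, which encodes the cartwheel hub, was at 89.9, 89.1 and 94.2 CPM in Control, 89.1, 93.5 and 88.0 CPM after AZ82 and 93.1, 81.0 and 88.8 CPM after CW069. The gene of its partner STIL was at 48.1, 48.8 and 52.5 CPM in Control, 48.6, 48.8 and 57.0 CPM after AZ82 and 48.6, 48.1 and 51.9 CPM after CW069.

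For Sass6 and Stil too the groups overlap, with the highest Stil value in AZ82 3. Cenpj, whose protein elongates centriolar microtubules, was at 34.9, 38.1 and 37.9 CPM in Control, 36.6, 41.1 and 40.0 CPM after AZ82 and 38.1, 38.8 and 35.9 CPM after CW069. Cep152, which with CEP192 brings PLK4 to the centriole, had the lowest level per length of the group, 2.86 ± 0.167 CPM per kb in Control (SD, n = 3), and was at 17.5, 15.5 and 16.5 CPM in Control, 17.5, 18.7 and 16.1 CPM after AZ82 and 17.5, 17.6 and 15.2 CPM after CW069. Cep192 itself was at 124, 133 and 132 CPM in Control, 136, 129 and 136 CPM after AZ82 and 128, 122 and 124 CPM after CW069. In Cep192 the inhibitor groups did not overlap with each other, though each overlapped with Control. Cep63, a partner of CEP152, was at 606, 540 and 463 CPM in Control 1 to 3, with the inhibitor libraries inside that range at 506 to 565 CPM. The 8 duplication genes include Cep135 of the cartwheel. Their log2 fold changes ran from -0.02 to 0.09 after AZ82 and from -0.06 to 0.02 after CW069. In any comparison 0 of 8 had an unadjusted p under 0.05. Of all tested genes, 4.04% were higher and 4.79% lower at that p after AZ82, and 3.63% and 3.71% after CW069. For CW069 against AZ82 the shares were 2.58% and 2.39%, and for the mean of the inhibitors 4.31% and 5.27%. With so few genes, 0 of 8 is near these shares and is not shown to be a trait of the group. Of the Plk4 transcript, 5.48% of 50-base words also occur in the predicted gene Gm9742, and 30.9% of the exonic bases of Sass6 face a gene on the other strand, so their counts could include reads from those genes.

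The 4 genes of the centriole cap and its length control also overlapped between groups, as most tested genes did. Ccp110 and Cep97 encode a capping pair at the distal end, and Cep76 and Cep78 encode proteins that act with it. Ccp110 was at 263, 291 and 326 CPM in Control, with AZ82 libraries at 277 to 305 CPM and CW069 libraries at 284 to 298 CPM. Log2 fold changes in this group ran from -0.07 to 0.06 after AZ82 and from -0.16 to 0.08 after CW069, and the smallest unadjusted p was 0.540 and 0.179.

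Among the centrins, small calcium-binding proteins of the centriole lumen, 1 member dominated. Cetn1, the centrin known from male germ cells, was 68.2-fold above the widely expressed Cetn2 and 5.09-fold above Cetn3 in Control CPM per kb of the longest coding transcript. With median transcript lengths, Cetn1 was at 367, Cetn3 at 111 and Cetn2 at 5.93 CPM per kb. By library, Cetn1 was at 416, 437 and 412 CPM in Control, 458, 482 and 451 CPM after AZ82 and 517, 453 and 433 CPM after CW069. The AZ82 libraries lay above all Control libraries, and CW069 3 fell among them. Its log2 fold change was 0.14 ± 0.08 after AZ82 (SE; edgeR unadjusted p = 0.104, adjusted p = 0.609) and 0.15 ± 0.08 after CW069 (0.0784 and 0.698), the latter 0.07 without CW069 1 and 0.20 without CW069 3 (unadjusted p = 0.0316). Cetn2 was at 6.76, 7.32 and 5.05 CPM in Control, 4.51, 6.36 and 5.41 CPM after AZ82 and 6.78, 6.91 and 4.60 CPM after CW069. Cetn3 was at 82.3, 85.9 and 75.9 CPM in Control, 77.7, 87.4 and 79.9 CPM after AZ82 and 85.1, 77.4 and 68.1 CPM after CW069. Both overlapped between all groups. The coding sequences of Cetn1 and Cetn2 are 78.6% identical with no shared run above 29 bases, and no 50-base word of their transcripts occurs in another gene's transcript.

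Poc1a and Poc1b encode WD-repeat proteins that stabilise the centriole wall. Poc1a was at 31.9, 32.4 and 30.7 CPM in Control, 36.3, 35.8 and 31.9 CPM after AZ82 and 33.8, 36.8 and 36.8 CPM after CW069. All CW069 libraries lay above all Control libraries, while AZ82 3 lay among them. The log2 fold change after CW069 was 0.18 ± 0.07 (SE; edgeR unadjusted p = 0.0384, adjusted p = 0.666). Over 18 alternative settings its unadjusted p ran from 0.0276 to 0.154, and it was over 0.05 without any 1 of the Control libraries, CW069 2 or CW069 3. Poc1b overlapped between groups, with Control libraries at 92.1 to 126 CPM, AZ82 libraries at 115 to 125 CPM and CW069 libraries at 101 to 120 CPM. Exonic bases of Poc1b overlap Galnt4 on the same strand (10.02%) and a gene on the other strand (20.1%), and 25.7% of those of Poc5 face a gene on the other strand, so these counts could include reads from those genes. Poc5, of the centriole's inner scaffold, and Cntrob, whose protein centrobin binds the daughter centriole, had log2 fold changes between -0.07 and 0.02 after either inhibitor.

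Appendages are the fins and spokes at the distal end of the mother centriole, which dock it to membranes and anchor microtubules. Odf2 encodes a protein of these appendages and, in the testis, a main component of the outer dense fibres of the sperm tail, and a count per gene does not separate the transcripts for these roles. It made up 38.8% to 49.6% of the CPM of all 42 members in a library. Its level was 4077, 3895 and 2670 CPM in Control 1 to 3, 4136, 4346 and 4313 CPM after AZ82 and 3844, 3587 and 3852 CPM after CW069. Control 3 held the lowest value of all 9 libraries, as it did for the late spermatid markers, and the AZ82 libraries lay above all Control libraries. The log2 fold change was 0.27 ± 0.13 after AZ82 (SE; edgeR unadjusted p = 0.0728, adjusted p = 0.584), but 0.09 without Control 3. It was 0.38 without Control 1 (unadjusted p = 0.0215) and 0.33 without Control 2 (unadjusted p = 0.0472). After CW069 it was 0.08 ± 0.13 (adjusted p = 0.909) and changed sign to -0.08 without Control 3. The part of the late spermatid markers in these values was not tested.

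**Figure D3:**
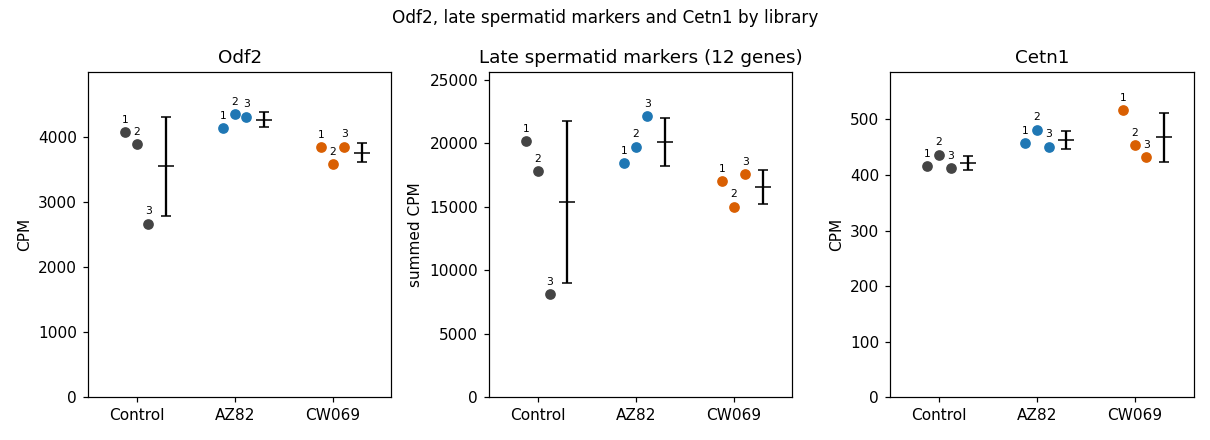
Odf2 (left), the summed level of 12 late spermatid markers (middle) and Cetn1 (right) in each library, in CPM; numbered points are libraries, and the bar beside them gives mean and SD over 3. Control 3 is the lowest library for Odf2, at 2670 CPM, and for the markers, at 8130 CPM, while for Cetn1 it is at 412 CPM beside 416 and 437 CPM in the other Control libraries.

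Other members lay on either side in Control 3. There, 17 of 42 members were below both other Control libraries and 16 were above both (40.5% and 38.1%, beside 36.2% and 37.4% of all tested genes). Next to Odf2, at a log2 ratio of -0.58 to the mean of Control 1 and 2, the members furthest below were Cetn2 (-0.48), Poc1b (-0.38), Cep76 (-0.33) and the distal appendage genes Cep83 and Cep89 (-0.32 each). Furthest above were Cep97 (0.39), Tubgcp6 (0.32) and the linker genes Cep250 (0.28) and Crocc (0.25).

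The remaining appendage genes had small estimates except the scarce Nin. Cep164, which recruits the kinase that starts cilium growth, was at 211, 212 and 225 CPM in Control, with AZ82 libraries at 219 to 244 CPM and CW069 libraries at 230 to 238 CPM. Its log2 fold changes were 0.10 and 0.12. Cep83, which builds the distal appendages from their base, had 0.08 and -0.02, and Cep89 had 0.16 and 0.09. Nin encodes ninein of the subdistal appendages, an anchor for microtubules. Its transcript was the scarcest member per length, at 3.87, 2.57 and 3.13 CPM in Control, 2.26, 2.71 and 2.89 CPM after AZ82 and 2.81, 3.22 and 3.29 CPM after CW069. The groups overlapped, and the log2 fold change after AZ82 was -0.28 ± 0.20 (SE; adjusted p = 0.668), but -0.42 without Control 2 and -0.12 without Control 1.

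Gamma-tubulin is the tubulin that nucleates microtubules, and the mouse has a pair of neighbouring genes for it on chromosome 11. In Control, Tubg1 was 24.0-fold above Tubg2 in CPM per kb. Their coding sequences are 93.3% identical, with a longest identical run of 164 bases, so some reads fit either gene: 14.3% of the 50-base words of the Tubg2 transcript occur in Tubg1. How the authors' counting treated such reads is not given in the sources used here. The first 90 coding bases are shown as a stretch in which the genes can be told apart. They come from GENCODE M21 transcripts on GRCm38, plus strand, and lie in exons 1 and 2, at chr11:101120194-101120242 and chr11:101120547-101120587 for Tubg1 and at chr11:101156120-101156168 and chr11:101156448-101156488 for Tubg2. Capitals mark the 11 bases that differ.
Tubg1: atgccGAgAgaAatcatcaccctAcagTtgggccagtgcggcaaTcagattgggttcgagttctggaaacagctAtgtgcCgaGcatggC
Tubg2: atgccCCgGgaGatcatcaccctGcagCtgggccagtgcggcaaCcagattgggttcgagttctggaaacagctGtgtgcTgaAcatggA

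Tubg2 had the largest estimated fold change of the members after CW069, on few reads. Its libraries held 19, 20 and 22 counts in Control, 19, 24 and 22 after AZ82 and 43, 44 and 30 after CW069, or 1.31, 1.28 and 1.46 CPM, 1.38, 1.71 and 1.59 CPM and 2.94, 3.01 and 1.70 CPM. All CW069 libraries were above all Control libraries, but CW069 3 lay within the AZ82 range, and the high values belong to CW069 1 and 2, the closest pair of libraries. The log2 fold change after CW069 was 0.90 ± 0.26 (SE; edgeR unadjusted p = 0.00538, adjusted p = 0.524), a 1.87-fold ratio with a 95% interval of 0.33 to 1.47 on the log2 scale. Without CW069 3 it was 1.13 (unadjusted p = 0.000457), without CW069 1 it was 0.78 and without CW069 2 it was 0.76. After AZ82 the log2 fold change was 0.21 ± 0.28 (adjusted p = 0.824).

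Tubg1 was at 32.6, 37.9 and 29.6 CPM in Control, 37.6, 32.6 and 40.3 CPM after AZ82 and 37.0, 38.3 and 38.5 CPM after CW069. Control 2 overlapped with the CW069 libraries, and the log2 fold change was 0.18 ± 0.10 (SE; unadjusted p = 0.101), but 0.28 without Control 2 (unadjusted p = 0.0171) and 0.10 without Control 3. With the counts of both genes summed, an alternative chosen after seeing the data in which Tubg1 supplies most of the counts, the log2 fold change after CW069 was 0.22 ± 0.10 (unadjusted p = 0.0461, adjusted p = 0.677).

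The TUBGCP proteins join gamma-tubulin into rings, and NEDD1 brings the rings to the centrosome and the spindle. Tubgcp5, a subunit found in the ring but not in the small gamma-tubulin complex, was at 28.6, 32.0 and 26.8 CPM in Control, 25.0, 27.0 and 26.0 CPM after AZ82 and 25.2, 24.0 and 23.8 CPM after CW069. Every CW069 library was below every Control library, while AZ82 2 lay just above Control 3. After CW069 the log2 fold change was -0.26 ± 0.08 (SE; 24.3 ± 0.769 against 29.1 ± 2.61 CPM, SD, n = 3; edgeR unadjusted p = 0.00853, adjusted p = 0.539). After AZ82 it was -0.16 ± 0.08 (unadjusted p = 0.0711, adjusted p = 0.583), but -0.10 without Control 2 and -0.22 without Control 3 (unadjusted p = 0.0262). For the mean of the inhibitors it was -0.21 ± 0.07 (unadjusted p = 0.0117, adjusted p = 0.490), the smallest p of a member there, and the p was 0.0819 without Control 2.

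The other ring genes had smaller estimates. Tubgcp2, of the small complex, had CW069 libraries of 118, 116 and 121 CPM, above the Control values of 111, 107 and 112 CPM, with a log2 fold change of 0.11 ± 0.06 (SE; unadjusted p = 0.088). Tubgcp3, Tubgcp4, Tubgcp6 and Nedd1 had log2 fold changes between -0.05 and 0.08 after AZ82 and between -0.06 and -0.0096 after CW069. In Tubgcp4, 26.1% of exonic bases face genes on the other strand.

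**Figure D4:**
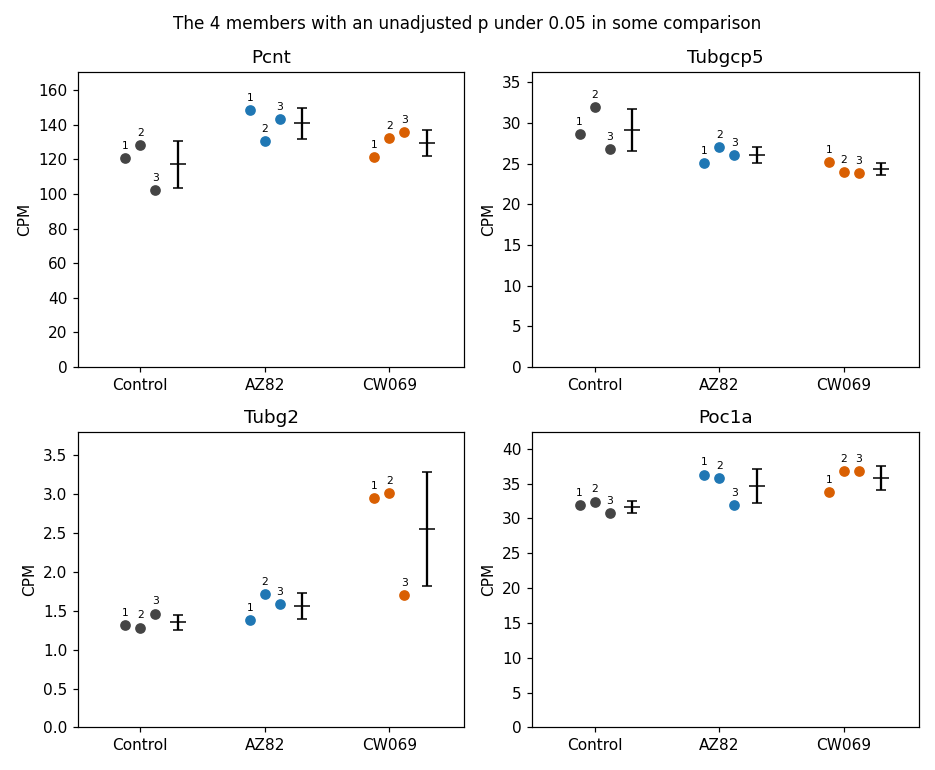
CPM by library of Pcnt, Tubgcp5, Tubg2 and Poc1a, the members with an unadjusted p under 0.05 in some comparison; numbered points are libraries and the bar beside them gives mean and SD over 3. The AZ82 libraries clear the Control range in Pcnt, and the CW069 libraries clear it in the other 3 genes.

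The scaffold around the centrioles is built by pericentrin and CDK5RAP2, which hold the gamma-tubulin rings. Pcnt, the pericentrin gene, was at 121, 128 and 102 CPM in Control, 148, 131 and 143 CPM after AZ82 and 121, 132 and 136 CPM after CW069. Each AZ82 library was above each Control library, and the CW069 libraries overlapped with Control. The log2 fold change after AZ82 was 0.27 ± 0.09 (SE; 141 ± 9.11 against 117 ± 13.5 CPM, SD, n = 3; edgeR unadjusted p = 0.0154, adjusted p = 0.554), but 0.17 without Control 3, where Pcnt was lowest. The unadjusted p was 0.0486 without Control 3 and 0.0572 without AZ82 1. After CW069 the log2 fold change was 0.15 ± 0.09 (adjusted p = 0.738), but 0.06 without Control 3 and 0.22 without Control 2 (unadjusted p = 0.0464). For the mean of the inhibitors it was 0.21 ± 0.08 (unadjusted p = 0.0267, adjusted p = 0.499), but 0.12 without Control 3 (unadjusted p = 0.126).

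Cdk5rap2 varied little, with a coefficient of variation of 3.12% over 9 libraries, and was at 359, 349 and 347 CPM in Control, 376, 370 and 342 CPM after AZ82 and 361, 358 and 366 CPM after CW069, with log2 fold changes of 0.05 and 0.04. Akap9, a scaffold of the Golgi and the centrosome, held 96.1 to 102 CPM in Control libraries, with 88.4 to 110 CPM in AZ82 and 93.3 to 99.4 CPM in CW069 libraries. Cep70, whose protein binds gamma-tubulin, had a log2 fold change of 0.04 after each inhibitor.

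The linker genes Cep250, Crocc and Cntln encode C-NAP1, rootletin and centlein, which tether the centrosomes of a cell to each other until mitosis. Their log2 fold changes ran from 0.04 to 0.09 after AZ82 and from -0.05 to 0.0061 after CW069, with an unadjusted p of 0.442 or more. Satellites are granules that carry proteins to the centrosome. Their scaffold gene Pcm1 held 326 to 363 CPM in Control libraries, with 324 to 349 CPM in AZ82 and 330 to 343 CPM in CW069 libraries. Ofd1, whose protein also limits centriole length, and Cep72 had log2 fold changes between -0.09 and 0.05 after either inhibitor.

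CW069 against AZ82 sets the inhibitors beside each other at unequal doses, 50 µM and 1 µM. Here too 0 of 42 members passed, beside 0% of all tested genes, and 16 of 42 lay above 0 (20 with library size alone, which puts the median of all tested genes at 0.03). Tubg2 had a log2 difference of 0.70 ± 0.26 (SE; edgeR unadjusted p = 0.0209, adjusted p = 0.962). It was the 1 higher member at an unadjusted p under 0.05, with 0 lower ones, beside 2.58% and 2.39% of all tested genes, and over the alternative settings 0 to 1 members were lower. The CW069 libraries lay entirely below the AZ82 libraries in 2 members, Cep192 (-0.10 ± 0.06) and Odf2 (-0.18 ± 0.13; unadjusted p = 0.202, and 0.00878 without Control 3, adjusted p = 0.451), and entirely above in 0, beside 5.8% and 5.52% of all tested genes.

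A wider list held 69 other genes of the centrosome, the centriole and augmin, a complex that branches microtubules, and all 69 were tested. In it 0 of 69 passed in any comparison, beside 0.00632% of all tested genes for the mean of both inhibitors and 0% in the other comparisons. After AZ82 its median log2 fold change was 0.03, and 2 of 69 genes were higher and 0 lower at an unadjusted p under 0.05, beside 4.04% and 4.79% of all tested genes. These were Fbf1 of the distal appendages (0.22 ± 0.09, SE) and Dzip1 of the ciliary base (0.19 ± 0.08). The lower genes with the smallest p there were the augmin subunit gene Haus7 (-0.14 ± 0.08) and Cep85 (-0.21 ± 0.13).

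After CW069 the median of the wider list was also 0.03, and 3 of 69 genes were higher and 1 lower at that threshold, beside 3.63% and 3.71% of all tested genes. Ccdc15, of the centriole's inner scaffold, was at 45.5, 48.5 and 49.2 CPM after CW069 and at 41.5, 42.2 and 36.0 CPM in Control, so the groups did not overlap (0.26 ± 0.08, SE; edgeR unadjusted p = 0.00776, adjusted p = 0.539). The others were Cep162 (0.26 ± 0.10), Cep120 of centriole elongation (0.16 ± 0.07) and, lower, Haus7 (-0.20 ± 0.08). Next among the lower genes was Sfi1, which encodes a centrin-binding protein, with a log2 fold change of -0.26 ± 0.13 and its lowest value, 20.6 CPM, in CW069 1.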

How the data were processed

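Counts of reads per gene were deposited by the authors as raw counts, without normalization; per the submitters' processing notes, Trimmomatic, HISAT2, HTSeq and the build GRCm39 were used, with no settings. Per the labels' protocols the kit marks strand; whether counting used it is not given in the sources used here. The separate table of each library held the same values as the joint one in all 19991 genes. The filter filterByExpr kept 15834 genes. The quasi-likelihood test of edgeR 4.0.16 (R 4.3.3) used TMM factors and all 9 libraries, each group having its own coefficient; SEs and intervals come from the F statistic. P-values are two-sided and adjusted by Benjamini-Hochberg over all tested genes. Transcript lengths, overlaps and shared words come from GENCODE M21 (GRCm38), an earlier build, by symbol. Alternatives were RLE or no scaling factors, other filters, DESeq2 1.42.0, limma-voom (limma 3.58.1), robust dispersion, the compared groups alone, a replicate block and each library left out. The fit was tested on simulated counts. The members and lists were chosen with earlier results of these data known. Members given by library were the duplication core, centrins, Odf2, Pcnt, Cdk5rap2, the gamma-tubulins, and those with an unadjusted p under 0.05 or the smallest p of a comparison and direction; of the wider list, the 2 genes with the smallest p per direction after each inhibitor, and Cep120, named after its value was seen; other values were picked to cover each role group.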

Additional observations from a re-analysis of the deposited data

How the results depend on the processing

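The count of members called was 0 in each of the 4 comparisons under every alternative run: RLE factors, library size alone, no filter, at least 1 CPM in 3 libraries, DESeq2, limma-voom, robust dispersion, the compared groups alone (not for the mean of the inhibitors, which uses every group), the replicate block and each of 9 libraries left out. The labels do not say whether the replicate numbers pair the libraries. Same-numbered libraries did not deviate together (correlations from -0.13 to 0.06 over 9 pairs). Different-numbered libraries ran from -0.08 to 0.16, so correlations this weak cannot settle whether a pairing exists. With the replicate block, 1 member was higher after CW069 at an unadjusted p under 0.05, against 2 without it, and 1 for the mean of the inhibitors, against 3. Over the alternatives, members higher at that p numbered 0 to 3 after AZ82 and 1 to 3 after CW069. For CW069 against AZ82 they numbered 0 to 1, and for the mean 0 to 4. Lower members numbered 0 to 1, except after CW069, where the number was 1 throughout. Shares of all tested genes under the alternatives were not kept, for calls or for this p. These counts therefore cannot be set against a background. The log2 fold change of Odf2 after CW069 reversed to -0.083 without Control 3, the lowest value with 1 library left out, and the highest was 0.196; the cause was not tested. Tubgcp5 after CW069 had an unadjusted p under 0.05 in 18 of 18 alternatives (adjusted p from 0.365 to 0.817). Tubg2 after CW069 did so in 19 of 19 (0.263 to 0.817). These include its sum with Tubg1, which is mostly Tubg1 counts and had a log2 fold change of 0.22. Pcnt after AZ82 did so in 17 of 18 (0.343 to 0.829) and Poc1a after CW069 in 10 of 18 (0.556 to 0.980). The alternatives refit the same 9 libraries for members picked by their small p, so they are not separate evidence. The median Control level of the members was 15.7 CPM per kb with median transcript lengths, a choice made after seeing the data, and 11.8 to 12.9 with a Control library left out. Depth limits mainly Tubg2, Nin and Cetn2.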
